A study of Mus musculus with 3 samples.

Results

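Prostaglandin synthesis and receptor genes were followed across the cell classes of the developing mouse ovary. The 10 genes, of 53465 in the count tables, were the cyclooxygenases Ptgs1 and Ptgs2, the terminal synthases Ptges, Ptges2, Ptges3, Ptgis and Ptgds, the breakdown enzyme Hpgd, and the receptors Ptger2 and Ptger4. They were taken by symbol, and each matched 1 row of the tables. Ptges was chosen on its level in day 7 granulosa cells, so its levels there are a description, and the question put to the data was whether a cyclooxygenase is in the same cells. The study profiled whole ovaries of female C57BL/6 mice, with 1 single-cell library for each of 3 ages: embryonic day 16.5, postnatal day 7 and postnatal day 14. No treatment is named in the labels. The title of the embryonic library gives a later embryonic day than its age field, and the age field is used here. The series is about the change from ERα to ERβ in the granulosa lineage as follicles develop.

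After filtering, the libraries held 456 embryonic, 509 day 7 and 583 day 14 cells, with 8743797 to 9065595 UMIs each (unique molecular identifiers, 1 per captured RNA molecule). No cell barcode was shared between libraries. Of 18 clusters, 15 were named from marker genes. Granulosa-like cells, the follicle cells around the oocyte, numbered 87, 88 and 92 in the order of age, and stroma-like cells 109, 229 and 228. The embryonic granulosa-like cells came from 1 cluster in which 8 of 20 granulosa markers exceeded the remaining cells by 2-fold. The cells at day 7 and day 14 came from a pair of clusters with 15 of 20 each, in different proportions at the 2 ages. The embryonic stroma-like cells came from 1 cluster, led by Nkx2-5 and Tlx1, with 5 stroma markers at 2-fold, the minimum for a name. None of these markers was in its top 10 genes. The clusters that held most stroma-like cells at day 7 and at day 14 had 12 and 10 such markers. Age ratios in stroma-like cells thus compare largely different clusters. Levels are counts per 1000000 UMIs (CPM) of a class, with exact 95% Poisson intervals, and ratios carry exact binomial intervals. Both cover counting error only. With 1 library per age, age and library cannot be told apart, no test between ages was possible, and a difference between ages has no replicate check.

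Prostaglandins are made in steps. Phospholipases release arachidonic acid, a cyclooxygenase turns it into the unstable intermediate prostaglandin H2, and a terminal synthase makes the final product, such as prostaglandin E2 (Ptges and its relatives), prostacyclin (Ptgis) or prostaglandin D2 (Ptgds). In the adult ovary, Ptgs2 is induced in granulosa cells before ovulation, and prostaglandin E2 acts through the receptor encoded by Ptger2 in expansion of the cumulus around the oocyte.

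The upstream sequences of Ptges and of the 2 cyclooxygenases are shown because these are the genes whose cells were compared. Each line gives the 250 bases before the RefSeq start on GRCm38.p6, read 5′ to 3′ on the gene's strand, with letters matching a searched motif in capitals.
Ptges (chr2:30903298-30903547, minus strand): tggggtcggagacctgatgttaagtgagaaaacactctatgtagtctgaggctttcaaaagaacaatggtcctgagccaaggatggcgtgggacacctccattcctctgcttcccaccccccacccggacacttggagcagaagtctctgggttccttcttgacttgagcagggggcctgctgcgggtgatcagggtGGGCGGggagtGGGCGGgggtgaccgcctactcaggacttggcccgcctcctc
Ptgs1 (chr2:36230176-36230425, plus strand): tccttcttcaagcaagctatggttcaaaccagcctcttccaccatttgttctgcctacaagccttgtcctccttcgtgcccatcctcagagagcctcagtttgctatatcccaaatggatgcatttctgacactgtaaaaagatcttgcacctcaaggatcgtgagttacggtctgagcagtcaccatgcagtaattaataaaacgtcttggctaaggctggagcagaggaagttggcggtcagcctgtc
Ptgs2 (chr1:150099781-150100030, plus strand): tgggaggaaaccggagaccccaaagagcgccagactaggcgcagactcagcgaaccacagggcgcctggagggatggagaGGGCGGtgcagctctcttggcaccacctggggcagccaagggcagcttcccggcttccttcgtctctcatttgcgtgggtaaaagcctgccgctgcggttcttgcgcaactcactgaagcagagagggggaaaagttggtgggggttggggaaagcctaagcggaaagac
The motifs were searched on both strands of the window that runs on to 50 bases past the start: TATAAA (the TATA box), GGGCGG (the GC box), TGACGTCA (the cAMP response element), AAGGTCA (a site of orphan nuclear receptors), AGATAA (letters that factors of the GATA family bind), CACGTG (the E-box) and the oestrogen response element. Ptges held 2 GC boxes, starting 53 and 42 bases before the start site. Ptgs2 held 1 GC box, and 1 E-box that begins after the start site, outside the printed bases. The Ptgs1 window held none of these letters. The GC box is in 35.7% and the E-box in 7.15% of 32851 promoter windows of the same length, and such matches are descriptions of letters. The annotated Ptges gene (ENSMUSG00000050737.13, chr2:30889471-30929863, GENCODE M21) reaches past the RefSeq start, so the printed window lies within its span. Ptgs1 (ENSMUSG00000047250.13) spans chr2:36230426-36252272 and Ptgs2 (ENSMUSG00000032487.8) spans chr1:150100031-150108227.

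The cyclooxygenases, which make the precursor of all prostaglandins, gave few UMIs, and those of Ptgs1 lay mainly outside granulosa-like cells. Ptgs1, the constitutive form, gave 29, 38 and 56 UMIs in the whole libraries in order of age. In endothelium-like cells its level was 12.2 CPM (95% interval 4.47 to 26.5) at embryonic day 16.5, 23.7 (12.3 to 41.4) at day 7 and 30.2 (18.9 to 45.7) at day 14, and these intervals overlap. Immune-like cells gave 91.4, 48.5 and 32.9 CPM from 5, 16 and 8 cells. In surface epithelium-like cells, the outer covering of the ovary, Ptgs1 was at 18.4 CPM (6.76 to 40.1) at day 7 and 65.3 (40.4 to 99.8) at day 14, when 8 of 12 cells held a UMI. At day 14 the 29 endothelium-like cells held 39.3% and the 12 surface epithelium-like cells 37.5% of the library's Ptgs1 UMIs.

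In granulosa-like cells Ptgs1 gave 8, 0 and 2 UMIs at the 3 ages. The inducible form, Ptgs2, gave 4, 0 and 1 UMIs there, of 9, 5 and 10 in the whole libraries. At day 7 no UMI of either gene was found in 88 granulosa-like cells with 1960930 UMIs, where 3 counts would be 1.53 CPM. In the embryonic library both genes together stood at 6.53 CPM (3.37 to 11.4) in granulosa-like cells, from 12 UMIs in 7 cells. Of these 7 cells, 5 also held a UMI of the surface epithelium markers Upk3b or Upk1b, against 19 of the 87 cells of the class. These counts were not thinned, and the 5 cells were deep, with 27988 to 61462 UMIs against a class median of 17441. Without cells that held either marker the level was 1.49 CPM, and it was 2.52 CPM when that library was clustered on its own. All 12 surface markers together stood at 519 CPM in the embryonic granulosa-like cells (11 of 12 detected), 97.4 CPM at day 7 and 77.8 CPM at day 14. The part of surface epithelium RNA in the embryonic value was not tested.

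**Figure D1:**
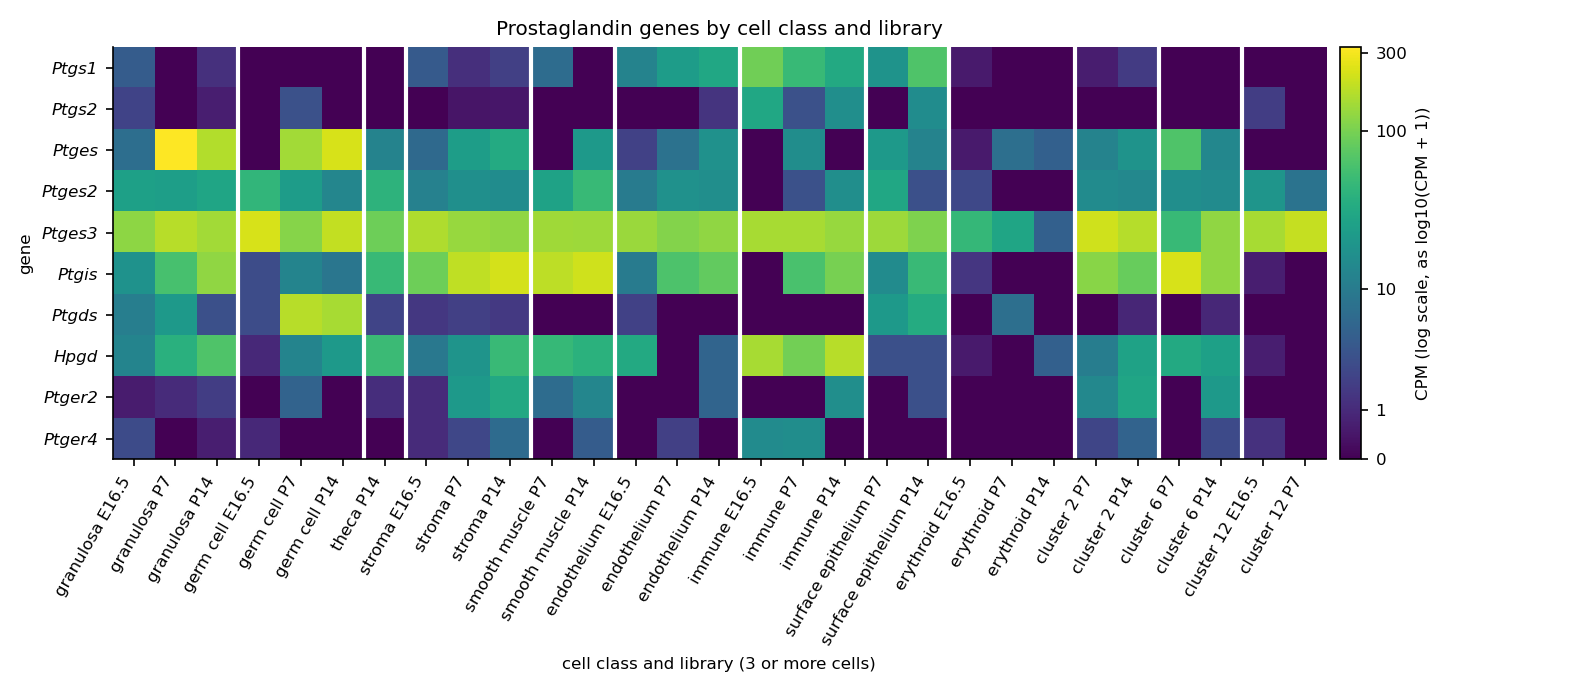
Level of each gene (rows) in each cell class and library (columns), as a colour on a log scale of CPM. Ptges is bright in postnatal granulosa-like and germ cell-like cells. The cyclooxygenase Ptgs1 is dimmer there than in endothelium-like, immune-like and surface epithelium-like cells, and Ptgs2 rests on at most 5 UMIs in any class and library.

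Ptges, the inducible prostaglandin E synthase, gave 13, 638 and 268 UMIs in granulosa-like cells of the embryonic, day 7 and day 14 libraries. Its level was 7.07 CPM in the embryo (3.76 to 12.1), 325 CPM at day 7 (301 to 352) and 168 CPM at day 14 (149 to 190). The embryonic value is low, the day 7 value is the highest, and no 2 of the intervals overlap. The day 7 level was 46.0-fold the embryonic one (26.7 to 86.9), and the day 14 level was 1.93-fold lower than at day 7 (1.67 to 2.24). These are the values on which the gene was picked, and they support nothing further. Granulosa-like cells held 72.5% of the library's Ptges UMIs at day 7 and 56.8% at day 14.

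Most day 7 granulosa-like cells carried the transcript. A Ptges UMI was found in 12 of 87, 85 of 88 and 75 of 92 cells in order of age. With each cell thinned to 5000 UMIs, the share was 6.90% (2.57 to 14.4), 86.4% (77.4 to 92.8) and 45.7% (35.2 to 56.4). The median cell had 17441, 17833 and 12365 UMIs. Erythroid-like cells, which should lack the gene, held a Ptges UMI in 1 of 119, 1 of 12 and 1 of 9 cells at median depths of 14699, 9902 and 16550 UMIs, and in none after thinning. In single day 7 granulosa-like cells the count ran from 0 to 36 with a median of 5.0 UMIs. The day 14 cells were themselves unequal: the 18 that clustered with most day 7 cells stood at 223 CPM (178 to 275), and the 74 of the cluster led by Cyp19a1, Ihh and Inhba at 151 CPM (130 to 174).

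Within granulosa-like cells, Ptges was set beside the estrogen receptor and proliferation genes. Cells were split by whether they held a UMI of the second gene after thinning to 5000 UMIs. Ptges levels in CPM used all UMIs. Cells counted as without the second gene can thus hold a UMI of it in their full counts. Esr2, which encodes ERβ, gave no UMI in the embryonic granulosa-like cells, 158 at day 7 and 127 at day 14. At day 7, Ptges stood at 406 CPM (353 to 466) in the 21 cells with an Esr2 UMI and 297 CPM (270 to 326) in the 67 without, and these intervals do not overlap. At day 14 the values were 187 CPM (152 to 226) in 30 cells and 158 CPM (135 to 184) in 62, with overlapping intervals. With cells thinned to 5000 UMIs, a Ptges UMI was in 90.5% (69.6 to 98.8) of the day 7 cells with Esr2 and 85.1% (74.3 to 92.6) of those without. At day 14 the thinned shares ran the other way, at 36.7% (19.9 to 56.1) with and 50% (37.0 to 63.0) without, and at both ages these intervals overlap. Esr1, which encodes ERα, had a UMI in 5 day 7 cells after thinning. Ptges was at 462 CPM (353 to 593) in these and 316 CPM (290 to 342) in the other 83, without overlap. The CPM intervals of these splits do not measure the spread between cells. Single day 7 granulosa-like cells ran from 0 to 943 CPM. The thinned shares there were 100% (47.8 to 100) and 85.5% (76.1 to 92.3), which overlap. At day 14 the order was reversed, with overlapping intervals. Ptges was then at 63.7 CPM (7.71 to 230) in 2 cells with Esr1 and 170 CPM (150 to 192) in 90 without. In the embryo, 8 cells with Esr1 held 0 Ptges UMIs, against 8.31 CPM (4.43 to 14.2) in the other 79. For Mki67, a marker of dividing cells, the day 7 intervals overlapped, with Ptges at 322 CPM (274 to 376) in cells with a Mki67 UMI and 326 CPM (298 to 357) in those without. At day 14 it was 305 CPM (238 to 385) in the 11 cells with a Mki67 UMI and 145 CPM (126 to 167) in the 81 without. The thinned shares of those day 14 cells with a Ptges UMI were 72.7% (39.0 to 94.0) and 42.0% (31.1 to 53.5), which overlap.

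Ptges was also found outside granulosa-like cells. In stroma-like cells its level was 6.17 CPM in the embryo (3.19 to 10.8), 24.3 CPM at day 7 (18.6 to 31.2) and 33.2 CPM at day 14 (26.4 to 41.2). Granulosa-like cells were 13.4-fold above them at day 7 (10.3 to 17.7) and 5.06-fold above at day 14 (3.94 to 6.56). In the embryonic library the same ratio was 1.15 (0.482 to 2.75), an interval that includes equal levels. Theca-like cells, the steroid-making cells of the follicle's outer layer, numbered 0, 0 and 41 in order of age. They gave Ptges at 12.4 CPM (6.21 to 22.3). The mitotic cluster led by Pimreg, Mxd3 and Tubb6, left unnamed, gave 12.3 CPM at day 7 and 18.4 CPM at day 14. At day 7 the order ran granulosa-like, then germ cell-like with no overlap of intervals, and then classes whose intervals overlap their neighbours'.

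Postnatal germ cell-like cells, led by the zona pellucida genes Zp3 and Zp2 that mark oocytes, ranked second at day 7. At day 14 they stood highest for Ptges, at 1.35-fold the granulosa-like level (0.986 to 1.83), an interval that includes equal levels. Ptges gave no UMI in the 68 embryonic germ cell-like cells, 139 UMIs or 147 CPM (123 to 173) at day 7, and 52 UMIs or 228 CPM (170 to 298) at day 14. Each of the 12 and 3 postnatal cells held a UMI. Single day 7 cells ran from 33.8 to 260 CPM with a median of 124 CPM. These cells were deep, with a median of 81813 UMIs at day 7, and granulosa markers were in them too: 18 of 20 were detected at day 7, together at 1480 CPM against 6963 CPM in granulosa-like cells. Per 100 Amh UMIs there were 434 Ptges UMIs in day 7 germ cell-like cells and 67.7 in granulosa-like cells. The same ratio was 106 against 23.7 for Inha, 40.3 against 24.3 for Serpine2, 165 against 100 for Foxl2 and 316 against 92.1 for Gja1. Ptges was thus higher relative to each of these 5 granulosa genes in germ cell-like than in granulosa-like cells. The part of attached granulosa RNA in the germ cell-like value was not tested.

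**Figure D2:**
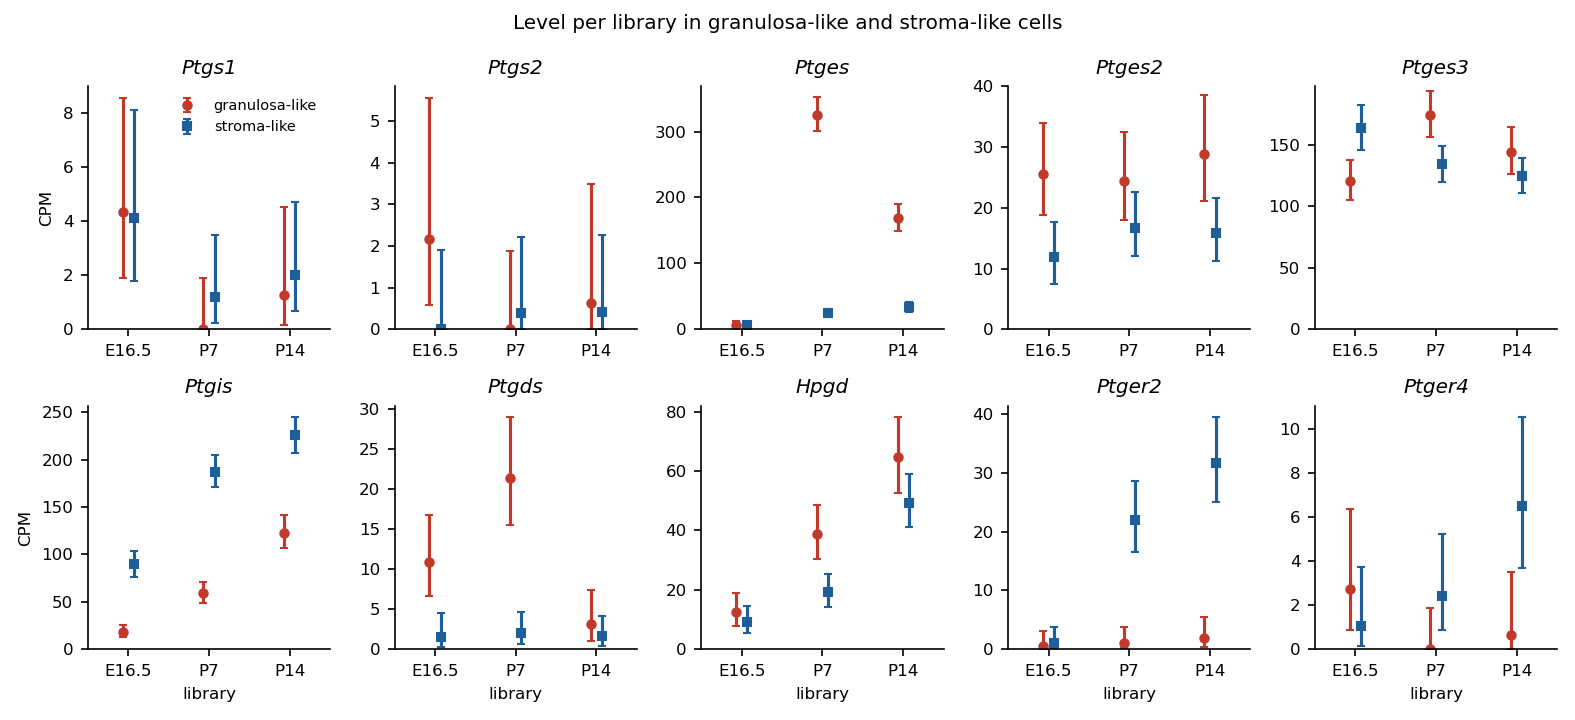
Level in CPM (y axis, linear from 0, a scale of its own per gene) in each library (x axis) for granulosa-like (circles) and stroma-like cells (squares). Bars are exact 95% Poisson intervals of 1 library each: Ptges is highest in day 7 granulosa-like cells at 325 CPM, and Ptgis and Ptger2 are higher in stroma-like than granulosa-like cells at both postnatal ages.

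Few granulosa-like cells held both Ptges and a cyclooxygenase. Among granulosa-like cells, 2 of the 12 embryonic cells with Ptges also held a Ptgs1 or Ptgs2 UMI, 0 of 85 did at day 7 and 2 of 75 at day 14. The product of the separate shares gives 0.966, 0 and 1.63 such cells. The share of Ptges-positive cells with a cyclooxygenase UMI was 0% (0 to 4.25) at day 7 and 2.67% (0.325 to 9.30) at day 14, by exact Clopper-Pearson intervals. The upper end of 4.25% is that of a two-sided interval. The limit set by 3 counts of 85, which is close to a one-sided bound, is 3.53%. Both limit the share of cells with a UMI and not the share that express the gene. After thinning to 5000 UMIs, no granulosa-like cell of any library held both. A cyclooxygenase UMI was then left in 1 embryonic granulosa-like cell and in 0 at day 7 and day 14. No postnatal cell of the class could thus hold both after thinning. At day 14 both cells with a cyclooxygenase UMI in this class were also Ptges-positive, as were 75 of the 92 cells of the class. Those 2 cells had 34966 and 24027 UMIs, against a class median of 12364.5.

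In other classes the overlap varied. Over all cells of a library, granulosa-like cells included, 3, 4 and 10 held both in order of age, of 25, 179 and 190 cells with Ptges. The separate shares give 1.21, 8.79 and 12.1 cells, but these pool classes of different make-up. Endothelium-like cells at day 14 held 4 of the 10, among 8 cells with Ptges and 14 with a cyclooxygenase, where the separate shares give 3.86. In the 12 day 7 germ cell-like cells, 1 cell held 3 Ptgs2 UMIs and Ptgs1 had none. Immune-like cells at day 7 had 4 cells with Ptges and 8 with a cyclooxygenase, and none with both.

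**Figure D3:**
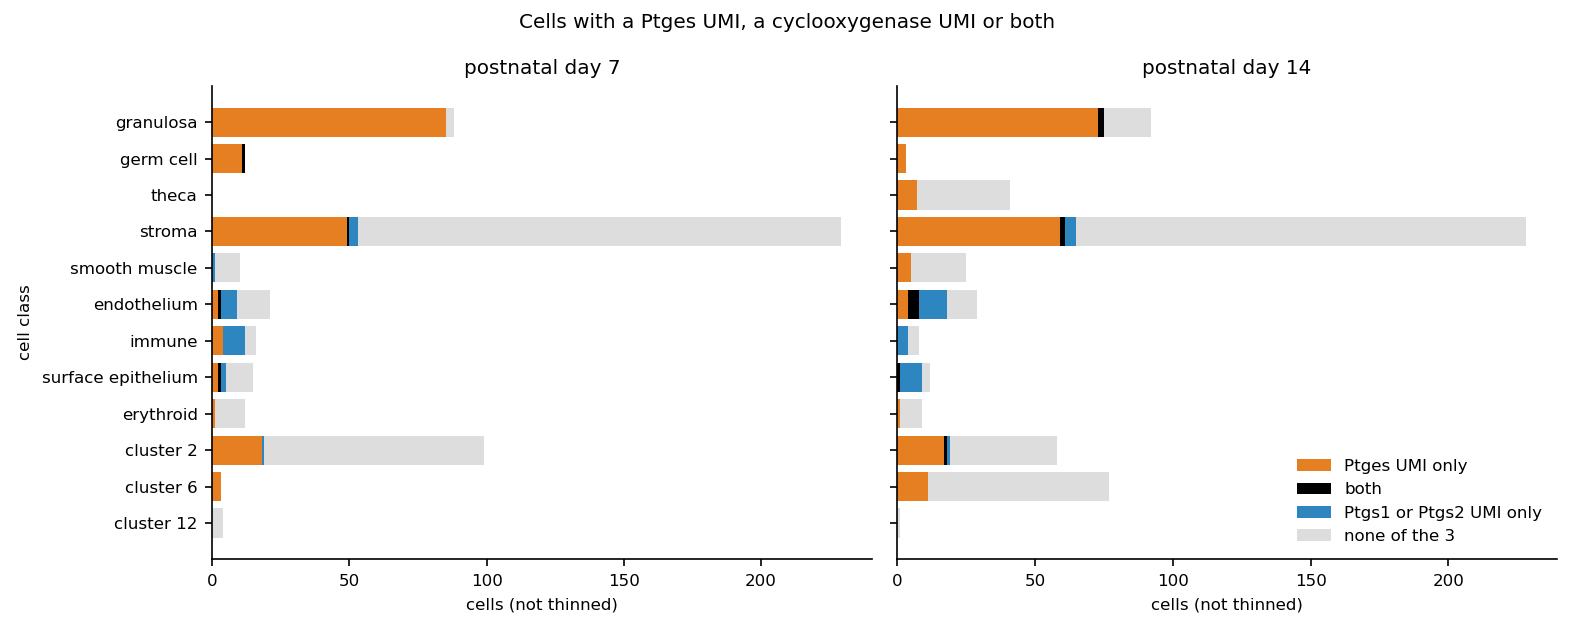
Number of cells (x axis, no thinning) in each class (y axis) with a UMI of Ptges, of Ptgs1 or Ptgs2, of both, or of none of the 3, at postnatal day 7 (left) and day 14 (right). The day 7 granulosa bar holds 85 cells with Ptges alone and no cell with both.

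The other 2 genes named for prostaglandin E synthase activity were broadly expressed. Ptges2, a membrane-associated form, stood at 25.6, 24.5 and 28.9 CPM in granulosa-like cells in order of age, and at 11.8, 16.7 and 15.8 CPM in stroma-like cells. Its age ratios in both classes had intervals that include 1. Its highest values in classes of at least 20 cells were 48.0 CPM (24.0 to 85.9) in day 14 smooth muscle-like, 44.2 CPM (32.5 to 58.8) in embryonic germ cell-like and 40.7 CPM (28.5 to 56.4) in day 14 theca-like cells, and these overlap. Ptges3, the p23 co-chaperone of Hsp90, gave 121, 174 and 144 CPM in granulosa-like cells. Its embryonic germ cell-like level was 228 CPM (200 to 258), and that of the embryonic erythroid-like cells 46.2 CPM (37.2 to 56.7). Reads of the processed copy Ptges3-ps, counted apart, came to 6, 10 and 3 UMIs, and how far the counting splits such copies was not tested.

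Ptgis, which makes prostacyclin, was highest in stroma-like and smooth muscle-like cells among classes of at least 10 cells. In stroma-like cells it gave 174, 470 and 557 UMIs, and its level was 89.4 CPM in the embryo (76.6 to 104), 187 CPM at day 7 (171 to 205) and 226 CPM at day 14 (207 to 245). Smooth muscle-like cells stood at 183 CPM (121 to 266) at day 7 and 214 CPM (158 to 283) at day 14. The stromal level was 4.98-fold (3.42 to 7.46), 3.17-fold (2.58 to 3.92) and 1.83-fold (1.56 to 2.17) that of granulosa-like cells at the 3 ages. In granulosa-like cells Ptgis was at 17.9 CPM in the embryo (12.4 to 25.2), 59.2 CPM at day 7 (48.9 to 71.0) and 123 CPM at day 14 (106 to 141), so the day 7 value was 3.30-fold the embryonic one (2.22 to 5.01) and day 14 was 2.08-fold day 7 (1.64 to 2.64). Within the day 14 granulosa-like cells, Ptgis was at 73.4 CPM (48.8 to 106) in the cluster that holds most day 7 cells and 139 CPM (118 to 161) in the other, the reverse order of Ptges. Endothelium-like cells had 10.1, 63.2 and 79.5 CPM. Of 177 stroma-like cells with Ptgis at day 7, 4 also held a cyclooxygenase UMI, and 6 of 195 did at day 14. These were all the stroma-like cells with a cyclooxygenase UMI at those ages, and the separate shares give 3.09 and 5.13 cells. In endothelium-like cells, where 7 of 21 and 14 of 29 cells held a cyclooxygenase UMI, 6 of 15 Ptgis-positive cells did at day 7 and 10 of 18 at day 14, and the separate shares give 5.0 and 8.69 cells. A pair of overlapping genes, 1110018N20Rik and Gm14291, gave 19 and 2 UMIs in all.

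Ptgds, the lipocalin-type prostaglandin D synthase, lay mostly in germ cell-like cells after birth. Germ cell-like cells gave 3 UMIs at embryonic day 16.5, 165 UMIs or 174 CPM (149 to 203) at day 7 and 35 UMIs or 153 CPM (107 to 213) at day 14. They held 75.0% of the day 7 and 59.3% of the day 14 library's Ptgds UMIs, from 12 and 3 cells. In granulosa-like cells Ptgds was at 10.9 CPM in the embryo (6.64 to 16.8), 21.4 CPM at day 7 (15.4 to 29.0) and 3.14 CPM at day 14 (1.02 to 7.32), and the day 14 value was 6.83-fold lower than day 7 (2.71 to 22.1). Surface epithelium-like cells had 21.5 and 34.2 CPM at day 7 and day 14. Stroma-like cells stayed between 1.54 and 1.99 CPM. Among single germ cell-like cells Ptgds ran from 19.4 to 608 CPM at day 7.

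Hpgd, which inactivates prostaglandins, was highest in immune-like cells, at 152, 93.8 and 173 CPM from 5, 16 and 8 cells, and all 8 day 14 cells held a UMI. In granulosa-like cells it gave 12.5 CPM in the embryo (7.93 to 18.8), 38.8 CPM at day 7 (30.5 to 48.5) and 64.6 CPM at day 14 (52.7 to 78.4), ratios of 3.10 (1.92 to 5.18) between day 7 and the embryo and 1.67 (1.23 to 2.27) between day 14 and day 7. Stroma-like cells gave 9.25, 19.1 and 49.4 CPM, with 2.58-fold (1.83 to 3.69) between day 14 and day 7. Theca-like cells stood at 50.9 CPM (37.1 to 68.1). Endothelium-like cells held 16 UMIs in the embryo (32.5 CPM), none at day 7 and 4 at day 14 (5.48 CPM), where 3 counts at day 7 would be 5.93 CPM. Without cells holding Upk3b or Upk1b, the embryonic granulosa-like level was 7.46 CPM, and it was 2.52 CPM when that library was clustered on its own. The overlapping gene Gm45540 gave 29 UMIs in all.

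**Figure D4:**
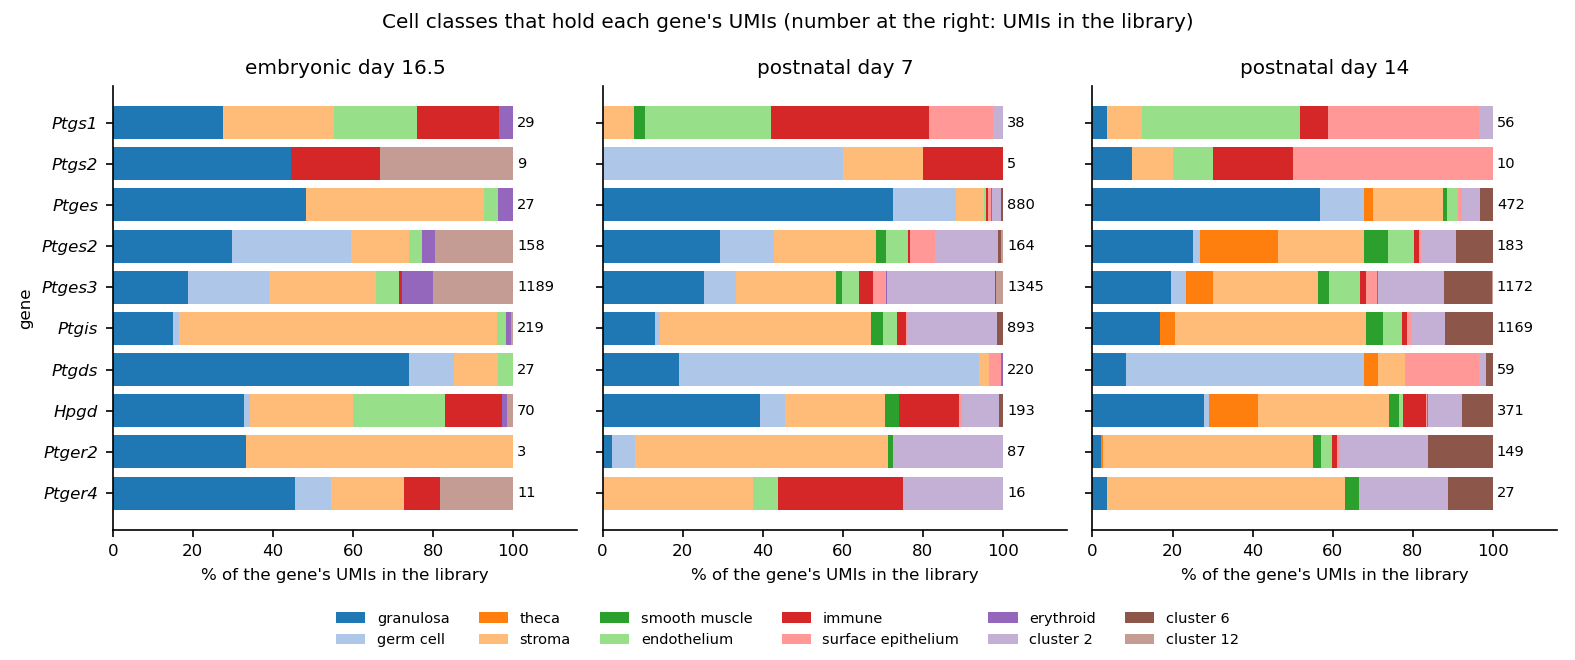
Share of each gene's UMIs (x axis, %) that lies in each cell class (colours), for the 3 libraries, with the gene's total UMIs at the right of its bar. Ptges lies mainly in granulosa-like cells after birth (72.5% at day 7), Ptgis and Ptger2 in stroma-like cells and Ptgds in germ cell-like cells.

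The receptor gene Ptger2 was mainly stromal. Ptger2, the EP2 receptor for prostaglandin E2, gave 2, 55 and 78 UMIs in stroma-like cells, or 1.03 CPM (0.124 to 3.71), 21.9 CPM (16.5 to 28.5) and 31.6 CPM (25.0 to 39.4). The ratio of day 7 to the embryo was 21.3 (5.64 to 181), from only 2 embryonic UMIs. Almost all stroma-like cells of these ages came from different clusters. The unnamed mitotic cluster had 14.0 and 28.8 CPM at day 7 and day 14, and the other unnamed postnatal cluster, led by Dleu7 and Fbxo32, 21.5 CPM at day 14. Granulosa-like cells held 1, 2 and 3 UMIs in order of age. Stroma-like cells were 21.5-fold higher at day 7 (5.68 to 182) and 16.8-fold higher at day 14 (5.54 to 83.2). Thinned to 5000 UMIs, a Ptger2 UMI was in 6.55% of stroma-like cells at day 7 (3.71 to 10.6). At day 14 it was in 16.2% (11.7 to 21.7). None of the 12 and 9 erythroid-like cells at these ages held one, with upper limits of 26.5% and 33.6%. These are too few cells to set the classes apart. The median stroma-like cell had 8940 and 8732 UMIs at those ages. Unthinned, the shares were 17.0% and 25.9%. Ptger4, the EP4 receptor, gave 2, 6 and 16 UMIs in stroma-like cells and 5, 0 and 1 in granulosa-like cells. It was at 16.2 CPM (5.25 to 37.8) in day 7 immune-like cells from 5 UMIs. The gene overlaps Ttc33 on the other strand, and the strand setting of the counting is not given in the sources used here.

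Counted as a group between ages, a gene was taken as apart at 2-fold or more on the (CPM + 10) scale, if it had at least 10 UMIs in the 2 libraries together. In granulosa-like cells, 6 members were measured between day 7 and the embryo: 3 were higher (Ptges, Ptgis and Hpgd) and 0 lower. Over all 13401 genes measured there, 3.25% were higher and 4.87% lower. Ptges was picked on that contrast, so the count is given with nothing read from it. The members' median log2 ratio was 0.85, against -0.12 over all genes, whose median was itself off 0. Between day 14 and day 7, 6 were measured, with 0 higher and 1 lower (Ptgds), against 1.19% and 1.29% of 12588 genes. In stroma-like cells, 7 were measured between day 7 and the embryo, with 2 higher (Ptges and Ptger2) and 0 lower, against 2.03% and 2.0% of 12876 genes. Between day 14 and day 7 it was 7 measured, 1 higher (Hpgd) and 0 lower, against 0.638% and 0.693% of 12846 genes. The members that had too few UMIs to be measured in granulosa-like cells were Ptgs1, Ptgs2, Ptger2 and Ptger4. A member could pass the count minimum through the library where it is high alone, so the members measured are not all members.

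The rest of the pathway was read from gene lists. Over all genes in granulosa-like cells, 3.25% were higher and 4.87% lower at day 7 than in the embryo. Between day 14 and day 7 it was 1.19% and 1.29%. In stroma-like cells 2.03% were higher at day 7 than in the embryo. Median log2 ratios at day 7 against the embryo in granulosa-like cells were 0.18 for release genes and 0.0043 for other synthases. Transport and breakdown genes had -0.25, against -0.12 over all genes. Of 10 arachidonate release genes, 5 were measured in granulosa-like cells between day 7 and the embryo and none was apart. The most abundant, the secreted phospholipase Pla2g12a, gave 74.5, 108 and 86.6 CPM in order of age, and Pla2g4a, the cytosolic phospholipase that supplies cyclooxygenases, 20.1, 34.7 and 16.9 CPM. Of 7 other synthases, 1 of 4 measured was higher at day 7, Akr1c18, which breaks down progesterone, at 1.09 and 15.8 CPM. The most abundant of them, Akr1b3, stood at 119 to 133 CPM. Among transport and breakdown genes 2 of 5 were higher: Slco3a1, an organic anion transporter, at 3.26, 126 and 114 CPM, and Zadh2, a prostaglandin reductase, at 23.9, 95.9 and 78.4 CPM. Slco2a1, the prostaglandin transporter, lay mainly in endothelium-like cells, at 158, 200 and 191 CPM, with 1, 1 and 21 UMIs in granulosa-like cells. It was the 1 of 6 measured genes of this list that was apart at day 14 against day 7. The 14 endothelium markers together, all detected at both ages, also stood higher in day 14 than in day 7 granulosa-like cells, at 322 CPM (513 UMIs) against 107 CPM (210 UMIs). The part of endothelial RNA in the Slco2a1 difference was not tested. In stroma-like cells Slco3a1 was again higher at day 7 (1 of 5), at 44.7 against 13.9 CPM.

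Other prostanoid receptors were sparse. Of 8, 2 were measured in granulosa-like cells and none was apart. Ptgfrn, a receptor-associated protein and the most abundant, was at 66.8, 75.0 and 26.7 CPM in stroma-like cells. It was lower at day 14 than at day 7 (1 of 3 measured), against 0.693% of all genes. Of 9 lipoxygenase genes 1 was measured in granulosa-like cells, Lta4h, at 34.3, 22.4 and 28.9 CPM, and it was not apart. Genes of ovulation and cumulus expansion were set beside the members, since prostaglandin E2 acts there in the adult. Of 14, 1 of 9 was higher in granulosa-like cells at day 7, the matrix proteoglycan Vcan, at 9.79, 92.3 and 151 CPM. At day 14 against day 7, 2 of 8 were higher, the luteinizing hormone receptor Lhcgr (4 and 30 UMIs) and the matrix protein Ptx3 (0 and 22 UMIs). The shares higher over all genes were 3.25% at day 7 against the embryo and 1.19% at day 14 against day 7. The most abundant ovulation gene, Adamts1, stood at 26.4 to 49.5 CPM. Of 15 stress genes that dissociation can induce, 2 were higher at day 7, the heat-shock genes Hspa1a at 5.44 and 262 CPM and Hspa1b at 2.72 and 67.8 CPM, and 2 were lower, Atf3 at 102 and 29.1 CPM and Dusp1 at 228 and 105 CPM. Over all genes in granulosa-like cells, 3.25% were higher and 4.87% lower at day 7. Median log2 ratios there were -0.41 for the ovulation list and -0.38 for the stress list, against -0.12 over all genes. In stroma-like cells Hspa1a was at 12.8, 465 and 689 CPM. The part of dissociation stress in the age differences was not tested.

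The genes whose levels ran most like those of a member were found over 16 class and library sums of at least 20 cells, among 8093 genes, as Pearson correlations of log2(CPM + 10). They are descriptions with no test, since the sums share 3 libraries and their depth. Sums too small to enter included all immune-like and surface epithelium-like, the postnatal germ cell-like and the embryonic endothelium-like ones. The correlations of Hpgd and Ptgs1 thus leave out the immune-like cells. For Ptges, itself highest in the day 7 granulosa-like sum, they were Cables1 (0.97), Esr2 (0.95), Synpo (0.94), Ank2 (0.94) and Fgfbp3 (0.93). For Ptgis they were Dpysl3, Cuedc1, Htra1, Arhgap10 and Mgp (0.93 to 0.95). For Ptger2 they included Tmem100, Thbs4, Col4a4 and Dkk3 (0.94 to 0.95). For Hpgd they included Greb1, Appl2, Akr1cl and Aldh2 (0.90 to 0.92), and for Ptges3 Sumo2, Mrpl42, Ssbp1 and Ppig (0.92 to 0.93). For Ptgds they were U90926, Calb1, Adora1, Cntnap5a and Tgfbr3l (0.90 to 0.96). Between members the highest values were 0.78 for Ptger2 with Ptger4, 0.71 for Ptges with Hpgd and 0.70 for Ptgis with Ptger2. Ptges with Ptgs1 and with Ptgs2 gave -0.10 and -0.14. A list was made for a member with at least 50 UMIs in its highest class and library. Ptgs1, Ptgs2, Ptger4 and Ptges2 did not reach that, Ptges2 with 48 UMIs at most. Ptgds reached it only through the day 7 germ cell-like sum, which did not enter the correlation, and its highest sum that did enter had 42 UMIs.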

How the data were processed

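Single-cell 3′ libraries (10x Genomics v2 kit) were made from dissociated ovaries, per the labels' protocols. The authors deposited unnormalized UMI counts of every gene in every barcode. The submitters' processing notes name Cell Ranger 2.1.1 and the build GRCm38. The role of each tool beyond that is not given in the sources used here. Columns not used came to 0. The members and lists were chosen with earlier results of these data known.

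Of 1554 barcodes, 1548 passed a minimum of 200 genes and a maximum of 20% mitochondrial UMIs. Counts were scaled to 10000 per cell and log-transformed, and 2000 variable genes, without the listed ones, gave 30 components, 15 neighbours and Leiden clusters at resolution 1.0 (scanpy 1.11.5, leidenalg 0.10.2). A cluster took a class name with at least 5 markers at 2-fold and no other class ahead among its top 10 genes, a threshold chosen after the clusters were seen; 3 clusters (157, 80 and 54 cells) stayed unnamed. Class and library sums were scaled to CPM, with exact 95% Poisson, Clopper-Pearson and conditional binomial intervals (scipy 1.17.1). Doublets were left in. Scrublet called 1, 3 and 3 cells, too few to show that it worked, and their removal was an alternative. Cells were thinned to 5000 UMIs for shares, and no cell was shallower.

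Named genes are all 10 members, list genes at least 2-fold apart with at least 10 UMIs, each list's most abundant gene, and the 5 genes most like each member with at least 50 UMIs, some of which are not reported here; Pla2g4a and Slco2a1 in endothelium-like cells were added after their values were seen. The 90 listed genes gave 88 matches in the tables. Promoter windows come from RefSeq (GRCm38.p6) for 9 of 10 members. The ratio and interval code was tested on simulated data. Nothing in the labels says how many animals were in a library.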

Additional observations from a re-analysis of the deposited data

Results flagged for a closer look

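Ptges3 ratios went opposite ways in granulosa-like and stroma-like cells between postnatal day 7 and embryonic day 16.5. The day 7 level was 1.44-fold the embryonic one in granulosa-like cells (95% interval 1.21 to 1.71) and 0.820-fold in stroma-like cells (0.701 to 0.959). Each class has 1 library per age, and the difference between the classes was not tested.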

How the results depend on the processing

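No paired analysis was possible because the labels give 1 library per age. A pseudocount of 1 CPM put the Ptges log2 ratio in granulosa-like cells between day 7 and the embryo at 5.34, and one of 50 CPM at 2.72, against 4.30. The embryonic cyclooxygenase level was 2.52 CPM with each library clustered alone and 1.49 CPM without cells holding Upk3b or Upk1b, against 6.53. The share of granulosa-like cells with a Ptges UMI was 96.6% at day 7 and 81.5% at day 14 without thinning, and 50% and 31.5% at 2000 UMIs, against 86.4% and 45.7%.

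The shares of all genes 2-fold apart move with the pseudocount and filter. At 1 CPM, 7.31% were higher and 14.8% lower in granulosa-like cells between day 7 and the embryo, and 4.87% and 5.92% between day 14 and day 7; in stroma-like cells they were 6.24% and 8.90%, then 3.42% and 4.78%. At 50 CPM they were, in that order, 0.992%, 0.895%, 0.175%, 0.199%, 0.520%, 0.287%, 0.148% and 0.187%. With no filter they were 2.06%, 3.08%, 0.754%, 0.814%, 1.28%, 1.26%, 0.411% and 0.446%. For stroma-like cells between day 14 and day 7, the marker gate put the higher share at 0.424%. The lower share there was 1.64% at Leiden resolution 2.0, 1.91% with each library alone and 1.09% with igraph.

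Of the main results' alternatives, 210 stayed within the interval or 1.5 times of the reported value and 36 did not. For other members' levels it was 205 and 13. No direction of a Ptges ratio turned. Clustering libraries alone named no day 14 granulosa-like cluster, the marker gate placed no embryonic cell in that class (it left 193, 34 and 95 cells unplaced, with 94, 45 and 73 within 1.3 to 1.7 times of the next class), and the rule needing a marker in the top 10 named no embryonic stroma, so these gave no value. The igraph, naming and Upk alternatives were chosen after seeing the data. Cyclooxygenase counts of 0 to 12 UMIs limit statements on these genes to detection, and germ cell-like values rest on 12 and 3 cells.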
